A study of Mus musculus with 5 samples.

Results

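The UDP-glucuronosyltransferases (UGT), cytosolic sulfotransferases (SULT) and carboxylesterases (CES) are the enzymes with which liver attaches sugar or sulfate groups to small molecules and splits esters. Their genes were taken as all probes of a whole-genome mouse array whose platform gene symbol begins with Ugt1 to Ugt3, Sult1 to Sult6 or Ces1 to Ces8. This gave 48 probes of 29922, and after older symbols were updated, 25 genes of 16637: 10 UGT, 10 SULT and 5 CES genes. Each gene is described by its brightest probe over the 5 arrays, and all 21 probes named Ugt1a1 are described singly.

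Total RNA of mouse liver was labelled with Cy5 and hybridised to a 1-colour array, 1 array for each of 5 groups. Wild-type (WT) C57BL/6 mice received chow, a high-fat diet, or a high-fat diet into which nordihydroguaiaretic acid (NDGA) was mixed, 2.5 g to each kg. The ob/ob mice, which lack functional leptin and whose labelled background is also C57BL/6, received chow or chow with the same amount of NDGA. All diets lasted 16 weeks, and RNA of 3 animals went into each group, though the labels do not say whether it was pooled. The design holds no WT chow group with NDGA and no ob/ob group on the high-fat diet, and the age and sex of the mice are not given in the labels. With 1 array per group, no test or replicate error exists for any value below, and every difference is one between a pair of arrays.

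NDGA is a plant lignan with catechol groups, and catechols are among the compounds that these enzymes conjugate. UGTs sit in the endoplasmic reticulum and transfer glucuronic acid from UDP-glucuronic acid to bilirubin, steroids, bile acids and drugs. SULTs are cytosolic and transfer sulfonate from the donor PAPS to phenols, catechols and steroids. Carboxylesterases are serine hydrolases of the endoplasmic reticulum that cleave ester drugs, and members of the Ces1 and Ces2 groups also hydrolyse acylglycerols and cholesteryl esters. The nuclear receptors CAR, PXR and PPAR-alpha, the AHR and liver factors such as HNF1 and HNF4 control many of these genes.

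The deposited median intensity was 38.1 to 47.0 on 4 arrays and 71.0 on the array of ob/ob mice with NDGA, so the values were quantile normalised, and levels below are quantile-normalised intensities unless said otherwise. Differences are on the log2(intensity + 50) scale, which understates those of dim probes, and 1 or more on that scale is called 2-fold. Every fold below is likewise that of intensities with 50 added, and so smaller than that of the printed levels. A gene counted in a comparison when its mean over that pair of arrays reached the median gene's, as it did for 8319 genes. Between a pair of probes of the same gene, the difference varied with an SD of 0.29 to 0.47 per probe, depending on the comparison. Both probes are read on the same arrays, so this SD does not measure variation between arrays or animals. The 6 hepatocyte markers named on the array (Alb, Ttr, Apoa1, Apob, Cps1, Hnf4a) were above the array median on all 5 arrays. Their summed level of 176309 to 181930 is mostly that of Alb, Apoa1 and Apob, and the deposited value of Alb was past the scanner limit of 65000 on 4 arrays, so the sum could hardly differ. Cps1, a urea cycle enzyme, read 3288 on WT chow, 3494 on high-fat diet, 2093 with NDGA on it, 1858 on ob/ob chow and 6215 with NDGA there (1.71). It was the 1 of 6 hepatocyte markers at least 2-fold apart in any comparison, and like Sult1a1 below it was lowest on ob/ob chow and highest with NDGA in ob/ob; its part in the results was not tested. Bulk liver RNA cannot tell fewer cells of a type from less RNA per cell.

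Most conjugation genes differed by less than 2-fold in each comparison. Of the 25 members, 18 passed the brightness filter in at least 1 comparison and 15 in all 4. The other 7 (Ugt2b38, Sult1b1, Sult1c1, Sult1e1, Sult2b1, Sult3a1 and Sult4a1) were dim throughout, with deposited intensities between -1.84 and 119. No member reached the scanner limit. High-fat diet against chow in WT had 0 of 16 members at least 2-fold higher, against 2.13% of all genes, and 1 lower (Ces2a), against 1.35%. Ces2a passed the filter there only through WT chow, where it was high. NDGA on the high-fat diet had 0 of 16 higher (0.914% of all genes) and 0 lower (1.57%). For ob/ob against WT on chow there were 0 of 17 higher (1.03%) and 1 lower (Sult1a1), against 1.82%. NDGA on chow in ob/ob had 3 of 16 higher (Sult1a1, Ces3 and Ugt2b34), or 18.8% of those measured against 6.8% of all genes, and 0 lower (0.493%). In the order of these comparisons the members' median differences were 0.04, -0.18, 0.03 and 0.28, beside -0.01, -0.03, 0.04 and -0.09 over all genes. The first and the second comparison share the high-fat array, the first and the third the WT chow array, and the third and the fourth the ob/ob chow array.

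The array of ob/ob with NDGA was the brightest, and normalisation changed the size of the differences there. It held the highest deposited value of 14 of the 18 members bright enough, but the highest normalised value of 8. With each array centred on its median, 3 of 16 members and 15.0% of all genes were at least 2-fold higher, so the shares lay closer together. Without normalisation the median over all genes in that comparison was 0.68, 32.5% of genes and 9 of 16 members were at least 2-fold higher, and Sult1a1, Ces3 and Ugt2b34 were at 3.19, 2.19 and 2.10. Relative to the median of all genes, these 3 members lay between 2.37 and 2.55, 1.38 and 1.52, and 1.28 and 1.42 over the 6 alternatives of scaling, offset and probe choice. The split of all genes between higher and lower also moved in the other comparisons: from 86 and 151 to 46 and 204 for ob/ob against WT, and from 76 and 131 to 93 and 92 for NDGA on the high-fat diet.

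**Figure D1:**
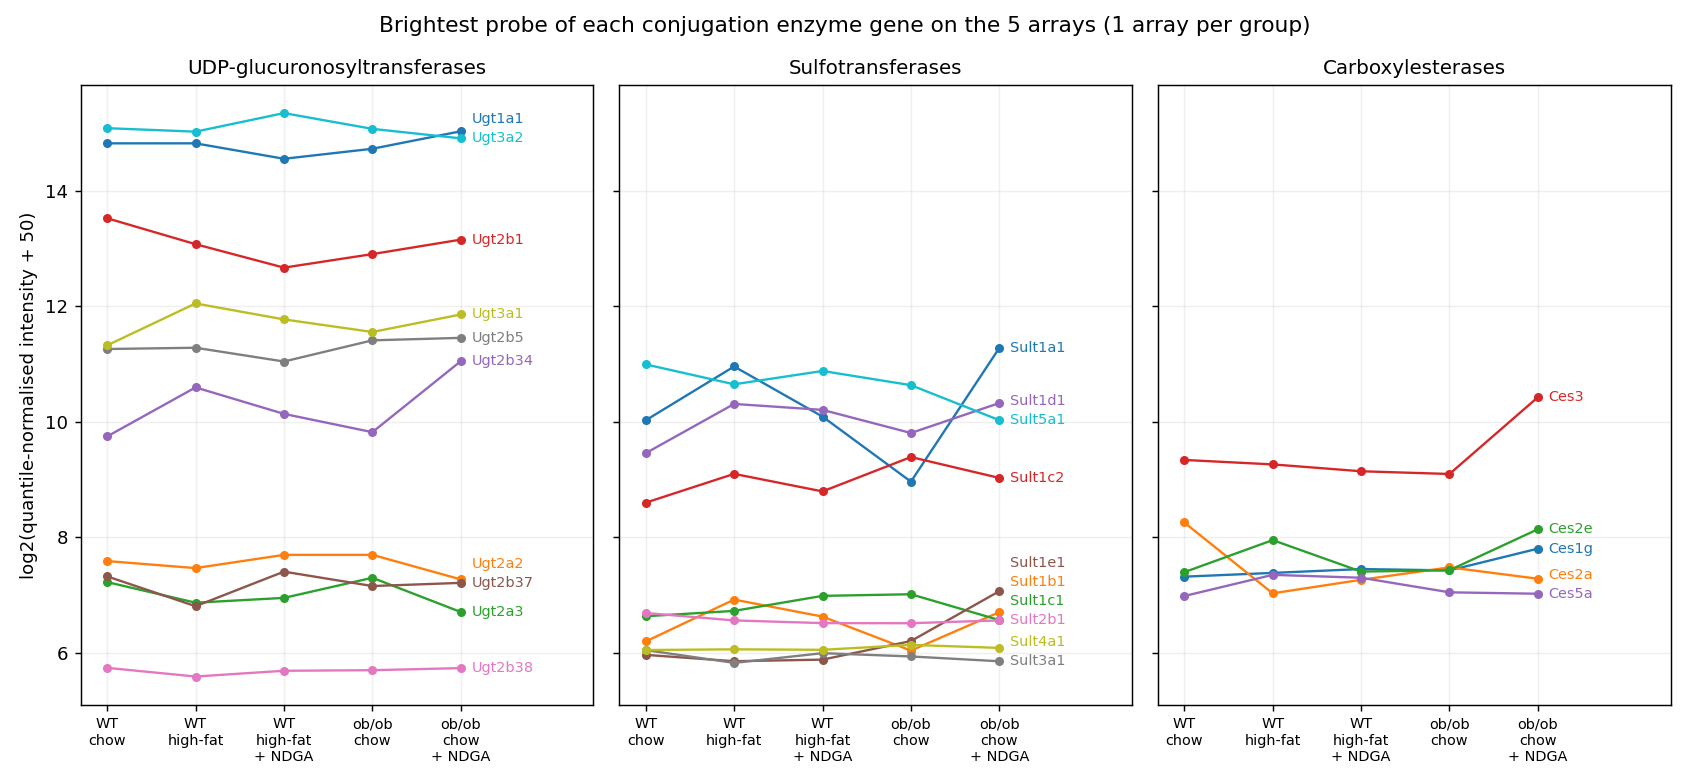
Level of each member's brightest probe, log2(quantile-normalised intensity + 50), on the 5 arrays, with 1 panel per family and 1 line per gene. Lines join the values of a gene and do not mark an order of the groups, and heights of different probes are not comparable. Sult1a1 spans 449.9 on ob/ob chow to 2438 with NDGA, while Ugt1a1 and Ugt3a2 stay nearly level on this normalised scale.

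**Figure D2:**
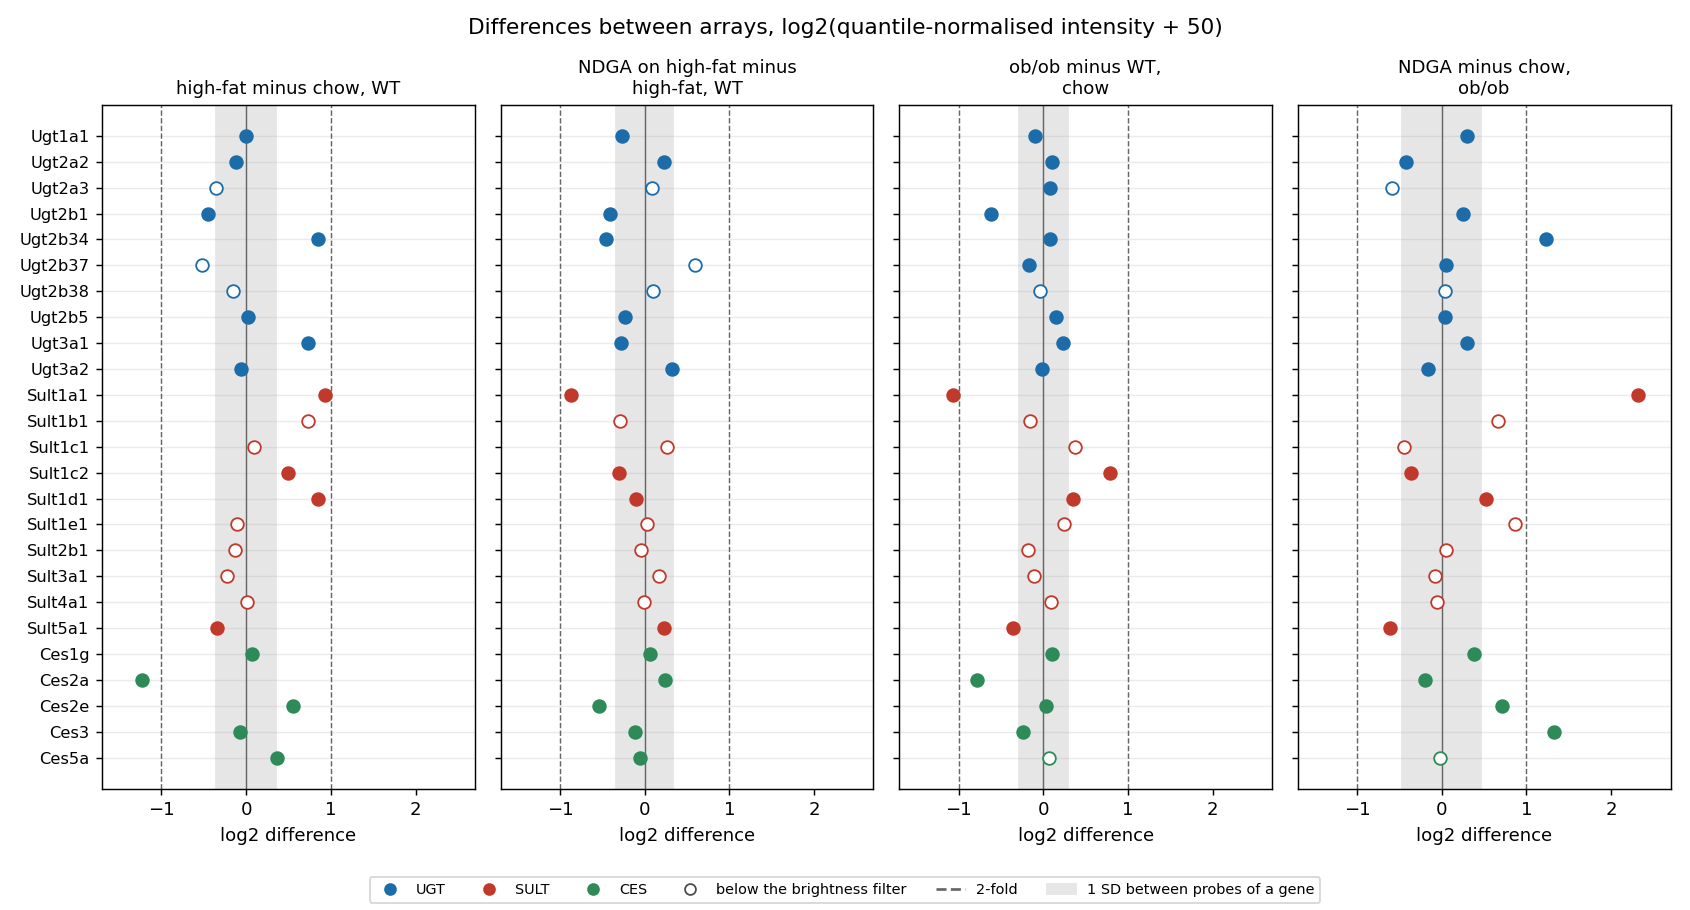
Log2 difference of each of the 25 genes in the 4 comparisons, on the log2(quantile-normalised intensity + 50) scale, with colours for families and open circles for genes below the brightness filter. Dashed lines mark 2-fold and the grey band 1 SD between probes of a gene (0.35, 0.34, 0.29 and 0.47 from left to right). Sult1a1 at 2.31 in the right panel is the point farthest from 0.

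Ugt1a1 encodes the bilirubin-conjugating enzyme, and its locus holds several first exons, each with its own promoter, joined to a shared set of later exons. RefSeq lists 9 Ugt1a genes, 7 of which end at the same base, and of the 8 besides Ugt1a1 the array's platform table names 0. The 21 probes named Ugt1a1 may therefore include probes for other transcripts of the locus. Their target sequences were not used here. The upstream sequences of 2 of the Ugt1a promoters show how separate the starts of this locus are. Each line gives the 250 bases before the start (RefSeq, GRCm38.p6, plus strand), with capitals for GTTAAT or its reverse ATTAAC, a core of HNF1 sites.
Ugt1a1 promoter at chr1:88211709-88211958: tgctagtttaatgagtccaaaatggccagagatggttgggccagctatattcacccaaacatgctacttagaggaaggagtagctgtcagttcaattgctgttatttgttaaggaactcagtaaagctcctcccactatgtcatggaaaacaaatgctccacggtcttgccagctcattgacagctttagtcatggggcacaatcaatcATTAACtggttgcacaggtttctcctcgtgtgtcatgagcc
Ugt1a6a promoter at chr1:88134559-88134808: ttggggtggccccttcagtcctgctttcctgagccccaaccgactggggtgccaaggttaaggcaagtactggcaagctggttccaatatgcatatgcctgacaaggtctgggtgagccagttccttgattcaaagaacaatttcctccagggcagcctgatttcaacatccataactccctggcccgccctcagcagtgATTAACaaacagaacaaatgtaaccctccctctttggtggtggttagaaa
The core begins 41 bases before the start in Ugt1a1 and 50 bases before it in Ugt1a6a. It was found on either strand in 4 of 8 Ugt1a promoters of that table, in 6 of 24 promoters of 22 member genes (Ces3, Sult4a1 and Ugt3a2 had no entry), and in 6.43% of all 32851 promoters of equal length. A match is a match of letters and not a measured site.

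After normalisation the brightest Ugt1a1 probe differed little between arrays, at 28927 on WT chow, 28927 on high-fat diet, 24024 on high-fat diet with NDGA, 27099 on ob/ob chow and 33433 with NDGA added. Its differences were 0.00, -0.27, -0.09 and 0.30 in the order of the 4 comparisons. Its size depended on the scaling: without normalisation the fourth was 1.33 (deposited 19704 without and 49616 with NDGA), and with median centring the second was -0.54 and the fourth 0.87. Other probes with the same name differed more. Of 19 probes bright enough, 3 were at least 2-fold higher on ob/ob than on WT chow (15.8%, against 0.911% of all probes) and 0 lower (1.97% of all probes). These 3, named here after their values were seen, were mMC021229 (1.47), mMR027876 (1.41) and mMR001433 (1.28). Without normalisation they were at 1.25, 1.20 and 1.04, where 0.535% of all probes were at least 2-fold higher. Another 2 of the 19 were then at least 2-fold lower, against 2.6% of all probes.

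The 3 probes shared one order over the arrays. Probe mMC021229 read 224 on WT chow, 432 on high-fat diet, 275 on high-fat diet with NDGA, 711 on ob/ob chow and 1903 with NDGA in ob/ob. Probe mMR001433 read 409, 677, 424, 1065 and 2380.2 in the same order, and probe mMR027876 read 106, 245, 125, 364 and 818. All 3 were lowest on WT chow and highest on ob/ob with NDGA. In contrast, mMR028968 (5809 on WT chow, 3244 on ob/ob chow, difference -0.83), mMC020172 (-0.76) and mMC019439 (-0.67) were dimmer on ob/ob chow.

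NDGA on chow in ob/ob had 8 of 18 Ugt1a1 probes at least 2-fold higher (44.4%, against 6.52% of all probes) and 0 lower (0.473%), with a median of 0.78. The count was 15 without normalisation, where 30.0% of all probes were that much higher, 11 with each array centred on its median (13.9%) and 9 after loess (6.65%). The largest difference was that of mMR001218, at 1.44 (704 on ob/ob chow and 1989 with NDGA), and the lowest that of mMC022718, at -0.51. NDGA on the high-fat diet had 0 of 18 probes higher (0.848% of all probes) and 1 lower (1.45%), mMR027691 at -1.05, with a median of -0.30. High-fat diet alone had 0 of 18 higher (1.89%) and 0 lower (1.58%), with differences from -0.78 to 0.92. With an offset of 16 or a floor 1 probe, mMR027876, was at least 2-fold higher (1.10 and 1.21), where 2.63% and 3.19% of all probes were. Probes of one locus share transcripts, so they are no replicates of each other.

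**Figure D3:**
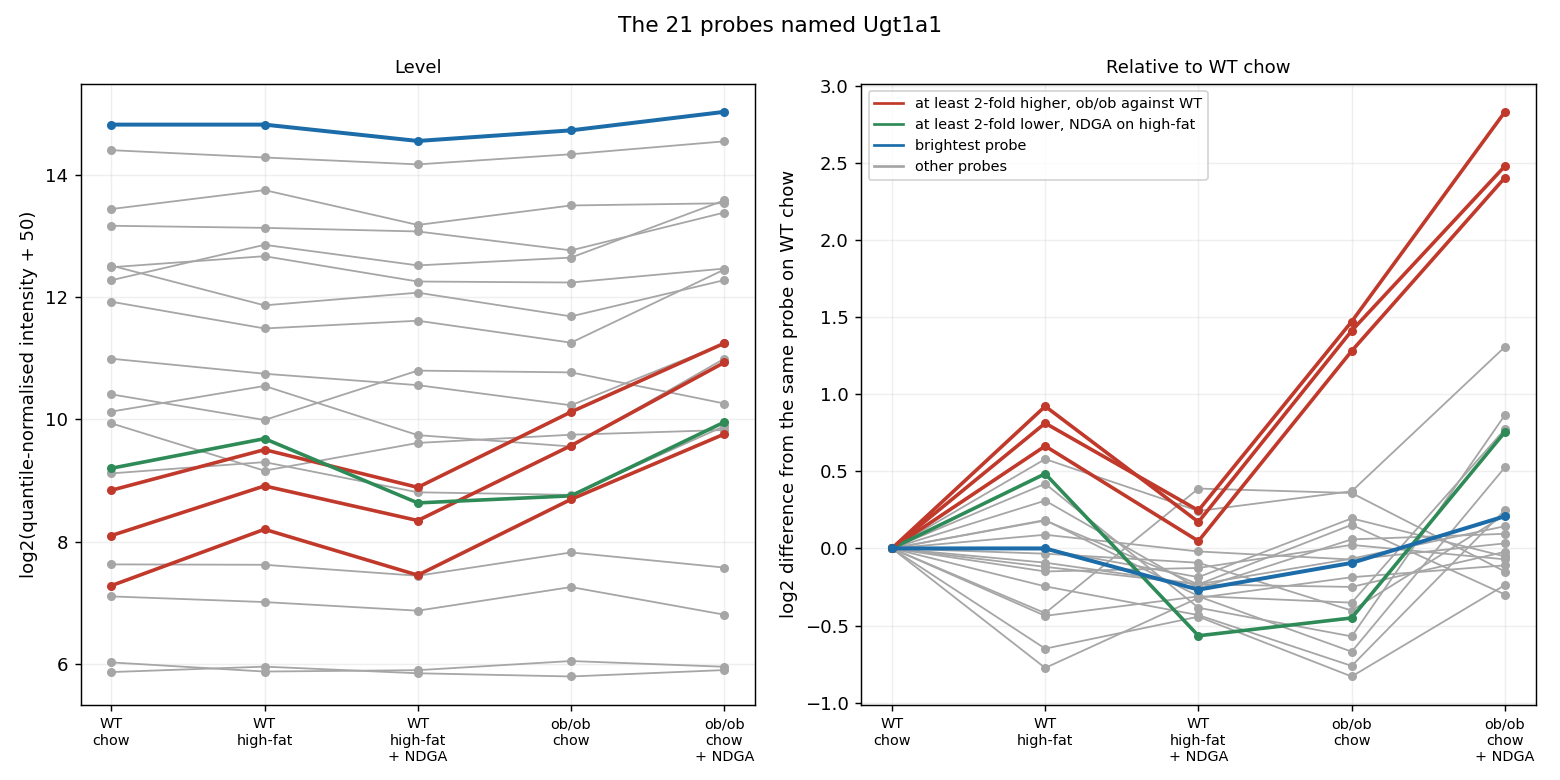
The 21 probes named Ugt1a1 on the 5 arrays: left, log2(quantile-normalised intensity + 50), and right, the difference of each probe from its own value on WT chow. Red lines are the 3 probes at least 2-fold higher on ob/ob than on WT chow, green the probe at least 2-fold lower with NDGA on the high-fat diet, and blue the brightest probe, which differed little after normalisation (0.00, -0.27, -0.09 and 0.30 in the 4 comparisons) while the red ones spread upward.

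Among the remaining UGT genes, Ugt2b34 differed most. The Ugt2b genes lie side by side and encode enzymes for steroids, bile acids and drugs, and their sequences are so alike that probes may share transcripts. Ugt2b34 read 809.9 on WT chow, 1499 on high-fat diet, 1077 on high-fat diet with NDGA, 855 on ob/ob chow and 2072 with NDGA in ob/ob. The ob/ob NDGA array was thus 2.34-fold above ob/ob chow (1.23), and the high-fat array 1.80-fold above chow (0.85), under the 2-fold line. Ugt2b1 read 11742 on WT chow and less on each other array, down to 6469 on high-fat diet with NDGA, but its deposited value was highest on ob/ob with NDGA (14191, against 10528 on WT chow). Its differences were -0.45 for the diet, -0.41 for NDGA on it, -0.62 for ob/ob and 0.25 for NDGA in ob/ob, the last being 1.32 without normalisation. Ugt2b5 stayed between 2063 and 2757 on the 5 arrays after normalisation, while its deposited values ran from 1963 to 4078.

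The UGT3 enzymes use sugars other than glucuronic acid. Ugt3a1 read 2516 on WT chow, 4193 on high-fat diet, 3453 with NDGA on it, 2961 on ob/ob chow and 3666 with NDGA there. That range is under 2-fold, while the deposited values ran from 2225 on ob/ob chow to 5455 with NDGA there. Its largest difference was 0.73, for high-fat diet. Ugt3a2 stayed between 30708 on ob/ob with NDGA and 41598 on high-fat diet with NDGA, although its highest deposited value was on ob/ob with NDGA (44410). Ugt2a2, Ugt2a3 and Ugt2b37 were near the filter, between 54.6 and 158, and no difference of theirs exceeded 0.60 in size. As a family, the UGT genes had medians of 0.00, -0.27, 0.07 and 0.15, and the third turned to -0.14 without normalisation and to -0.13 with median centring. The fourth was 1.14 and 0.68 under these, beside 0.68 and 0.23 over all genes.

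Among the sulfotransferases 4 of 10 genes were bright enough to compare. Sult1a1, which sulfonates phenols and catechols, differed most of all members. Its single probe read 994 on WT chow, 1941 on high-fat diet, 1041 on high-fat diet with NDGA, 449.9 on ob/ob chow and 2438 with NDGA in ob/ob. It was lowest on ob/ob chow and highest on ob/ob with NDGA. With high-fat diet it was 1.91-fold higher (0.93), with NDGA on that diet 1.83-fold lower (-0.87), on ob/ob against WT chow 2.09-fold lower (-1.06), and with NDGA in ob/ob 4.98-fold higher (2.31). Those sizes ranged from 0.93 to 0.97, -0.91 to -0.80, -1.24 to -1.04 and 2.30 to 3.19 over the 6 alternatives of scaling, offset and probe choice. The NDGA comparisons in WT and ob/ob, which share no array, thus had opposite signs for Sult1a1, and the difference between them was not tested. Its promoter follows because no other member differed as much (RefSeq, GRCm38.p6, minus strand, 250 bases before the start that the table gives, the HNF1 core in capitals, beginning 232 bases before the start).
Sult1a1 promoter at chr7:126676419-126676668: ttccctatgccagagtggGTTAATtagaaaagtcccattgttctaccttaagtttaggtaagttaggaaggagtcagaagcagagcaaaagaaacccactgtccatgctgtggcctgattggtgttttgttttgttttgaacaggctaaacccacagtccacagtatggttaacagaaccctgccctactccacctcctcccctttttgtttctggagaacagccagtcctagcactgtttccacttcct
Neither AGGTCA, the core of many nuclear receptor sites, nor GCGTG, that of AHR sites, was found there on either strand. These were found in 4607 and 9250 of all 32851 promoters. The other motifs searched, TGACNNNGC of antioxidant response elements and TATAAA, were found on neither strand in the 4 promoters printed here, and in 10.2% and 12.4% of all promoters.

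Sult1d1, a sulfotransferase for catecholamines, read 654 on WT chow and 1220.3 on high-fat diet (0.85), 1133 with NDGA on that diet, 846 on ob/ob chow and 1234 with NDGA there. Sult1c2 read 338, 499, 395, 622 and 473 in the same order, with its highest value on ob/ob chow (0.79 against WT). Its deposited value was higher on ob/ob with NDGA (688) than on ob/ob chow (480), so its NDGA difference of -0.36 turned to 0.48 without normalisation. Sult5a1 was highest on WT chow (1992) and lowest on ob/ob with NDGA (995, -0.61 against ob/ob chow), although without normalisation it was higher there. The SULT median with high-fat diet was 0.68 over 4 genes, with 3 above 0 and Sult5a1 below it, and it was 0.68 to 0.73 under the 5 other settings of scaling and offset. Sult1e1, the estrogen sulfotransferase, was dim, at 12.5, 7.94 and 9.06 on the WT arrays, 23.8 on ob/ob chow and 84.3 with NDGA in ob/ob. It did not pass the filter in any comparison.

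The 5 carboxylesterase genes of the rule carry old platform symbols. Ces1, Ces5, Ces6 and Ces7 were updated to Ces1g, Ces2e, Ces2a and Ces5a. Ces3 is an old symbol of both Ces1d and Ces3a, so it was kept and its gene is unsettled here. The Ces3 probe read 599 on WT chow, 565 on high-fat diet, 516 with NDGA on it, 498 on ob/ob chow and 1327 with NDGA in ob/ob. It was level on 4 arrays and 2.51-fold higher with NDGA in ob/ob (1.33).

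Ces2a, a liver and gut acylglycerol hydrolase and a target of CAR and PXR, went the other way. It was brightest on WT chow, at 256, and read 80.9 on high-fat diet, 104 with NDGA on it, 129 on ob/ob chow and 106 with NDGA in ob/ob. It was 2.34-fold lower with high-fat diet (-1.23, and -1.66 with a floor in place of the offset) and 1.71-fold lower on ob/ob chow (-0.78). Its probe is dim and does not pass a filter at the 75th percentile. The reading of 80.9 on high-fat diet is below the brightness that the filter asks of the pair's mean. Ces2a thus passed only through WT chow, and the filter partly fixed its call. Its promoter is shown because Ces2a was the one member at least 2-fold lower with the diet (RefSeq, GRCm38.p6, plus strand, 250 bases before the start, AGGTCA in capitals, beginning 226 bases before the start).
Ces2a promoter at chr8:104733753-104734002: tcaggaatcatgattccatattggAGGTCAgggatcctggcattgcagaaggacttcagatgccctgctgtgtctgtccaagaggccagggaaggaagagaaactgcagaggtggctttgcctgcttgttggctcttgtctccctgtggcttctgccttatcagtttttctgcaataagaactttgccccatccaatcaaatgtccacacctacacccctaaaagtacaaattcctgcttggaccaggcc
AGGTCA or its reverse TGACCT was found in 6 of the 24 member promoters (25%) and in 14.0% of all promoters, as a match of letters only. Ces2e read 119 on WT chow, 198 on high-fat diet, 119.9 with NDGA on it, 122.7 on ob/ob chow and 232 with NDGA there, so its differences of 0.56, -0.55, 0.03 and 0.71 were all under 2-fold. Ces1g, which acts on liver triglyceride, stayed between 109.8 and 174 after normalisation, and Ces5a between 76.7 and 113.

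Another 6 genes, named on the platform by older symbols outside the rule, carry SULT or CES names today: Ces1c, Ces1e, Ces1f, Ces2g, Ces3b and Sult2a8. Ces1f read 3045 on WT chow, 4134 on high-fat diet, 3034 with NDGA on it, 1806 on ob/ob chow and 6163 with NDGA in ob/ob (1.74 against ob/ob chow). Ces1e, known as egasyn because it holds beta-glucuronidase in the endoplasmic reticulum, read 828, 769, 676, 463 and 1477 in the same order (1.57). Both were lowest on ob/ob chow and highest on ob/ob with NDGA, as Sult1a1 was. Gusb, which encodes beta-glucuronidase, was at 0.09 for ob/ob and 0.32 for NDGA in ob/ob.

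Ces3b and Sult2a8 were lower on both ob/ob arrays than on all 3 WT arrays. Ces3b read 12042, 7704 and 9603 on the WT arrays in the order above, and 4212 and 3632 on the ob/ob arrays without and with NDGA. Its difference for ob/ob was -1.50, and that of its second probe -1.55. Sult2a8 read 338, 311 and 263 on the WT arrays, then 44.7 and 60.9 (-2.03, or 4.09-fold lower on ob/ob chow). Ces1c, an esterase secreted into plasma, stayed between 22649 and 26502 after normalisation by its brightest probe (deposited 18537 to 39560), while its dimmer probe was at -1.18 for high-fat diet. Ces2g stayed between 241 and 340.0. With these 6 genes the counts became 3 of 23 lower for ob/ob (1.82% of all genes) and 5 of 21 higher for NDGA in ob/ob (6.8% of all genes), and the other 6 counts did not change. Sult2a8 read 44.7 on ob/ob chow, under the array median of 46.9. It passed the filter for ob/ob only through WT chow, where it was high, so the filter largely fixed its call.

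**Figure D4:**
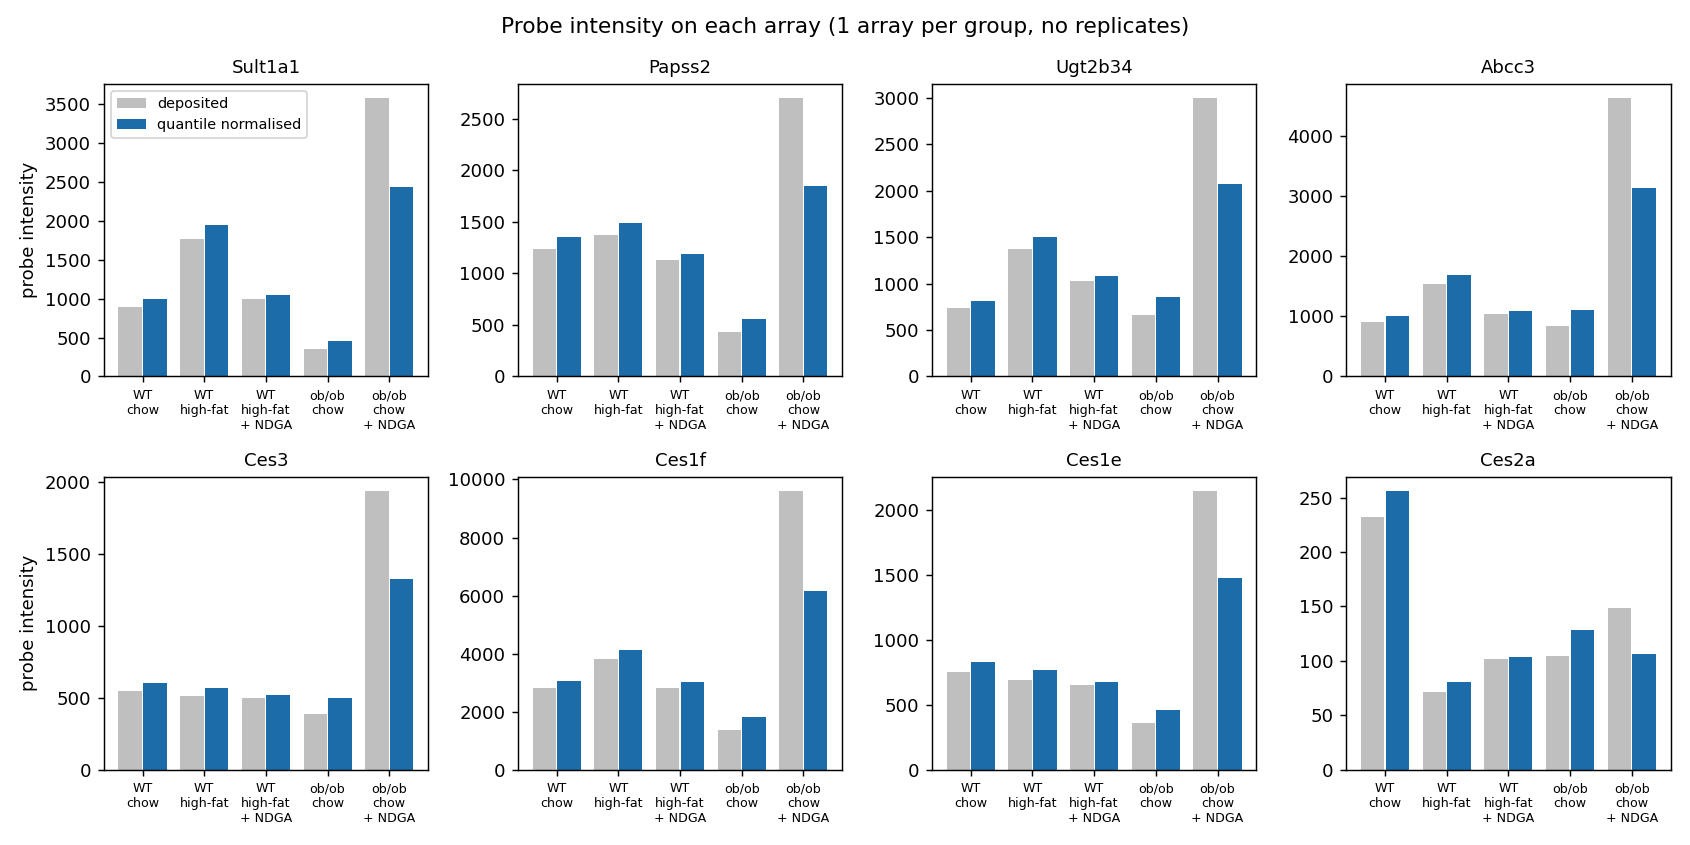
Intensity of 8 probes on the 5 arrays, deposited (grey) and quantile normalised (blue), with bars from 0 and a separate axis for each gene. Sult1a1 and Papss2 are lowest on ob/ob chow (449.9 and 556 after normalisation), Ces3, Ces1f and Ces1e highest on ob/ob with NDGA, and Ces2a is highest on WT chow (256).

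Genes that supply or receive the reactions were read from lists of partner genes. The donor PAPS is made by Papss1 and Papss2. Papss2 read 1354 on WT chow, 1493 on high-fat diet, 1191 with NDGA on it, 556 on ob/ob chow and 1845 with NDGA in ob/ob. It was 2.32-fold lower on ob/ob chow (-1.21) and 3.13-fold higher with NDGA in ob/ob (1.65), but as the mean of its 2 probes it was at -0.71 and 0.97, under 2-fold. Papss1 read 1968, 1518, 1607, 2008 and 1386 in the same order, with its lowest value on ob/ob with NDGA, where its deposited value was the highest (2026). Papss2 alone of the sulfonation partners was past 2-fold, as 1 of 8 measured for ob/ob (1.82% of all genes lower) and 1 of 9 for NDGA in ob/ob (6.8% higher). The list's medians were 0.28, -0.31, -0.02 and 0.65 in the order of the comparisons.

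Of the glucuronidation partners 8 of 10 were bright enough, and 1 was past 2-fold, with NDGA in ob/ob (6.8% of all genes higher). Abcc3, which exports glucuronides from hepatocytes to blood, read 998, 1687, 1084, 1112 and 3123 on the 5 arrays in the order above and was 2.73-fold higher with NDGA in ob/ob (1.45). Ugp2, which makes UDP-glucose, was at 0.65, -0.80, 0.09 and 0.98. Ugdh, which oxidises UDP-glucose to UDP-glucuronic acid, was too dim to compare. The list's medians were 0.26, -0.39, 0.14 and 0.34.

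Other ester hydrolases had 12 measured genes in the first 3 comparisons and 11 in the fourth. Bche, the butyrylcholinesterase secreted by liver, read 515 on WT chow, 138 on high-fat diet, 155 with NDGA on it, 42.1 on ob/ob chow and 40.4 with NDGA there. It was lower with high-fat diet (-1.59) and on ob/ob chow (-2.62), and it was the one gene of that list past 2-fold in either, where 1.35% and 1.82% of all genes were lower. For ob/ob, Bche passed the brightness filter only through WT chow, where it was high. Among regulators, 2 of 8 were at least 2-fold higher with NDGA in ob/ob, against 6.8% of all genes, and 0 were past 2-fold in the other comparisons. Nr1i3, which encodes CAR, read 299.6, 462, 359, 209 and 525 (1.15), and Nr1h3, which encodes LXR-alpha, 341, 447, 262, 261 and 625 (1.12). The genes of PXR (Nr1i2), AHR (Ahr) and NRF2 (Nfe2l2) were dim on average, with differences of 0.64 or less in size.

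Markers of other cells and of sex-biased liver expression also differed between the arrays, and their part in the values above was not tested. Summed over 13 macrophage markers, the level was 7465 on WT chow, 11894 on high-fat diet, 6271 with NDGA on it, 15320 on ob/ob chow and 13945 with NDGA there, with Cd163 lowest (1.01 to 9.36). Vsig4 and C1qb weighed most in that sum. Over 11 stellate cell and matrix markers the sum was 6969, 13446, 9220.5, 11545 and 14041 in the same order, with Lum lowest (4.63 to 11.7). Dcn weighed most there (4069 on WT chow, 7201 on ob/ob with NDGA). At least 2-fold higher with high-fat diet were 5 of 11 macrophage and 5 of 9 stellate markers (2.13% of all genes). With NDGA on it 5 of 11 and 4 of 10 were lower (1.57%), while Acta2 (0.89) and Des (0.48) were higher, under 2-fold. On ob/ob chow 3 of 11 and 4 of 9 were higher (1.03%), and with NDGA there 2 of 12 and 1 of 10 (6.8%). Over 15 skeletal muscle markers the sum was 2602 to 4006 on 4 arrays and 12016 on high-fat diet with NDGA. There 7 of 9 measured were at least 2-fold higher than on high-fat diet (0.914% of all genes). Of these, Ckm, Ckmt2 and Cox6a2 read 13.6, 27.7 and 20.8 on high-fat diet, under the array median of 46.9. Mylpf read 49.2 there, also below the brightness that the filter asks of the pair's mean. Ckm, Ckmt2, Cox6a2 and Mylpf passed the filter only through the array where they were high, so the filter largely fixed their call. On the ob/ob array with NDGA some muscle markers were higher too: Ckm read 13.6 without and 223 with NDGA (2.10), Ckmt2 23.8 and 178 (1.63), and Mylpf 50.5 and 253 (1.59), and Cox6a2 differed by 1.70. Mylpf alone of these passed the brightness filter there, and only through the array with NDGA, where it was high. Male-biased liver genes had 7 of 8 measured at least 2-fold lower on ob/ob chow (1.82% of all genes), where Sult1a1, Sult2a8 and Ces3b were lower too, and 3 of 8 lower with high-fat diet (1.35%), where Ces2a was lower, and 1 of 8, Cyp2d9, higher (1.03). Female-biased genes had 4 of 8 and 3 of 8 higher in these comparisons, against 1.03% and 2.13% of all genes. Of the male-biased genes lower on ob/ob chow, Susd4 read 28.3 there and 717 on WT chow. It passed the brightness filter only through WT chow.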

How the data were processed

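The deposited table gives 1 intensity per probe and array. How the authors scanned, background-subtracted and scaled the arrays was not given in the sources used here. Values are linear and run from below 0 to above 65000. Of 29922 probes, 21020 carry 1 symbol in the platform table, 0 several and 8902 none. Through RefSeq (GRCm38.p6), 17558 symbols were current, 3410 were replaced by a unique synonym and 52 kept, which gave 16637 genes. The brightest probe by mean deposited intensity stood for a gene. Values were quantile normalised over the 5 arrays in Python 3.11.15 (numpy 2.4.6, pandas 2.3.3), and log2(value + 50) was taken.

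Groups have 1 array each, so no test was run and the number of arrays limits the precision. In the 4 comparisons, members were counted at a log2 difference of 1 among genes at or above the median brightness. Genes are named by a rule: members at least 2-fold apart, the 4 brightest of each family, and up to 4 genes per list and comparison that are at least 2-fold apart. Any other gene or probe was picked with its values in view. The members, lists and rules were chosen with earlier results of these data known. Another 10 settings were tried, and the Ugt1a1 probe counts and family medians under other scalings were added later. The steps were tested on simulated data.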

Additional observations from a re-analysis of the deposited data

Results flagged for a closer look

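Among the 48 probes of the members, 1 was at least 2-fold apart in opposite directions in the 2 NDGA comparisons, which share no array. The share of all probes that did so was not counted, so 1 of 48 cannot be called more or less than usual. Probe mMR027691, named Ugt1a1, was at -1.05 for NDGA on the high-fat diet in WT (774 without and 348 with NDGA) and at 1.21 for NDGA on chow in ob/ob (381 without and 943 with NDGA). The difference between these 2 effects was not tested, since each rests on 1 pair of arrays. Without normalisation they were -0.94 and 2.05, and the first was then under 2-fold.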

How the results depend on the processing

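There were 12 summary values (counts of members higher and lower and the members' median, in 4 comparisons) and 10 alternatives. Median centring, loess (span 0.3), no filter on dim genes, the mean of all probes, an offset of 16, a floor at the 25th percentile and leaving out saturated probes each kept the 12 values within 1.5 times (counts) or 1 SD between probes (medians). The share of all genes was not part of these values. With median centring, 15.0% of all genes were higher with NDGA in ob/ob, beside 3 of 16 members. The members' median there was 0.68, beside 0.23 over all genes. Without normalisation, NDGA in ob/ob had 9 members higher in place of 3 and a median of 1.14 in place of 0.28, with deposited medians of 38.1 without and 71.0 with NDGA. With the filter at the 75th percentile, 0 members were lower with high-fat diet, as Ces2a was left out. With members by updated symbol, 3 were lower for ob/ob and 5 higher for NDGA in ob/ob. Of those lower, Sult2a8 passed the filter only through WT chow. The 5 differences of members past 2-fold, and those of Sult2a8, Ces1e, Ces1f and Ces3b, kept their sign under 6 alternatives of scaling, offset and probe choice. Partner genes were read under 2 of these settings only. With 1 array per group, differences under the SD between probes (0.29 to 0.47) are within the spread of probes of 1 gene. Larger ones are not thereby beyond the variation between arrays or animals, which that SD does not measure. No paired analysis was possible because no group has replicates.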

Other observations

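Of 12 genes of other conjugation reactions, 10 were named on the array and 9 were bright enough to compare. Nat2, an arylamine N-acetyltransferase, was 2.40-fold higher with high-fat diet (1.26, with 2.13% of all genes at least 2-fold higher), at 575 on WT chow and 1449 on high-fat diet, and read 974 on ob/ob chow. With NDGA in ob/ob, 2 of the 9 were at least 2-fold higher, against 6.8% of all genes. Tpmt, the thiopurine methyltransferase, read 331 on ob/ob chow and 865 with NDGA (1.27). As3mt, the arsenite methyltransferase, read 144 and 580.5 (1.70), but as the mean of its 2 probes it was at 0.99, under 2-fold. None of the 9 was at least 2-fold apart for NDGA on the high-fat diet or for ob/ob against WT, where the list's medians were -0.15 and -0.07.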
